A study of Homo sapiens with 6 samples.

Results

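The levels of 10 mRNAs used as markers of breast cancer stem cells were compared between MDA-MB-453 cells with and without a hairpin against tRF-1-Ser. The 10 genes, CD24, CD44, EPCAM, PROM1, ALDH1A1, ALDH1A3, SOX2, SOX9, KLF4 and BMI1, were chosen by symbol, and all 10 were among the 36517 genes of the count table. MDA-MB-453 is an established human breast cancer cell line. Cells of both groups carried a lentivirus and were collected at day 3: the control libraries came from cells with the negative-control hairpin shNC (control, n = 3) and the shtRF libraries from cells with the hairpin shtRF-1-Ser (shtRF, n = 3). tRF-1-Ser is a fragment from the 3′ end of a serine tRNA precursor. These libraries hold no measure of it, so the knockdown could not be checked here and the groups are those of the labels. One cell line and 1 hairpin were used, and the sources do not say whether the 3 libraries of a group came from separate transductions, so p-values measure the spread between these libraries, which may be partly technical.

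Breast cancer stem cells are commonly recognised by surface proteins, by aldehyde dehydrogenase activity and by transcription factors. CD44, a receptor for hyaluronan, together with little or no CD24, a small glycoprotein anchored in the membrane by a lipid, and with EPCAM, an epithelial adhesion protein, is the best known surface pattern. PROM1 (CD133) is a membrane glycoprotein used for the same purpose in several tumours. ALDH1A1 and ALDH1A3 oxidise retinaldehyde to retinoic acid and contribute to the activity read by the ALDEFLUOR assay. SOX2 and KLF4 are among the factors that reprogram somatic cells to pluripotency, SOX9 is a luminal progenitor factor in the mammary gland, and BMI1 is a subunit of Polycomb repressive complex 1, which silences genes through chromatin.

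Of the 10 markers, CD24 mRNA fell to 0.472 of its control level in shtRF cells, KLF4 mRNA rose 2.60-fold, and ALDH1A3 mRNA rose 4.76-fold from a level of a few counts. EPCAM, BMI1, SOX9, SOX2 and PROM1 did not pass the test. ALDH1A1 was at or under the detection floor of 3 counts in every library and CD44 in 4 of the 6, its other libraries being shtRF replicates 1 and 2 with 4 counts each, and neither gene passed the filter for the test. In all, 2 of the 8 tested members were higher and 1 was lower in shtRF libraries by edgeR's quasi-likelihood test with Benjamini-Hochberg adjustment over all tested genes (adjusted p under 0.05). Over the 19628 genes tested, 20.6% were higher and 18.9% lower by the same rule, so that the share of members called was near that of all genes. The median log2 fold change was 0.09 over the 8 tested members and 0.00 over all tested genes.

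The 250 bases before the RefSeq start site (GRCh38.p14) are shown for the 3 members that passed the test, 5′ to 3′ on the strand of the gene, because these are the mRNAs whose levels moved. Capitals mark matches on either strand to the GC box GGGCGG, which binds SP and KLF factors, or to the E-box CACGTG. They are CD24, minus strand, chr6:106975628-106975877, KLF4, minus strand, chr9:107489770-107490019, and ALDH1A3, plus strand, chr15:100879581-100879830.
CD24: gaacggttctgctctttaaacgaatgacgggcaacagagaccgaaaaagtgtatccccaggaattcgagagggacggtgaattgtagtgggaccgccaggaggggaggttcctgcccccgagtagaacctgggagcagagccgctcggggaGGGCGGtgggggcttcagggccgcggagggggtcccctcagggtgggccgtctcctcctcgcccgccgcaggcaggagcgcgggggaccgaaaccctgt
KLF4: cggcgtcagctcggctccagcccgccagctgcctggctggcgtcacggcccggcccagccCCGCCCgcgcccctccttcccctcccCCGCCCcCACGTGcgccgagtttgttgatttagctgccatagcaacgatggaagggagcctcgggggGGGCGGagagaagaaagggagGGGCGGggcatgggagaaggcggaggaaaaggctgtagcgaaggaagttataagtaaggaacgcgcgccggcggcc
ALDH1A3: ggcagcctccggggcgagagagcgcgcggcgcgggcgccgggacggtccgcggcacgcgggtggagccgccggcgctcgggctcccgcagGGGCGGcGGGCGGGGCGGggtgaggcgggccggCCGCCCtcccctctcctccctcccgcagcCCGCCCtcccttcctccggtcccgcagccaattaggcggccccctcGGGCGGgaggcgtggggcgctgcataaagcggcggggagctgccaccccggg
The CD24 stretch held 1 GC box, the KLF4 stretch 4 GC boxes and 1 E-box, and the ALDH1A3 stretch 6 GC boxes, of which a pair overlapped by 1 base. G and C made up 65.6% of the bases for CD24, 69.2% for KLF4 and 82.4% for ALDH1A3. Among 35116 RefSeq upstream stretches of the same length, 42.6% held a GC box, 6.34% the E-box, 6.57% the AP-1 motif TGANTCA and 10.7% the TATA box TATAAA. Stretches were available for 8 of the 10 markers, not for EPCAM or SOX9. CD24 had 3 start sites, PROM1 had 4 and BMI1 had 2. For these, only the start nearest the 5′ end of the gene in the count table was searched. CD44 had 2 GC boxes, SOX2 had 1, BMI1 had 6 and an E-box, PROM1 and ALDH1A1 had no match, and no AP-1 or TATA match stood in any of the 8. For KLF4 and ALDH1A3 this start lies inside the gene span of the count table, and the stretch is then exonic or intronic. These matches describe the letters only.

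The markers ranged from one of the more abundant mRNAs of these cells to hardly any reads. Levels between genes were compared as RPKM, reads per kilobase of exon per 1000000 counted reads. Mean RPKM over the 6 libraries was 209 for EPCAM, above 99.1% of tested genes, 29.1 for BMI1 and 16.7 for CD24. KLF4 followed at 2.08 and SOX9 at 1.95, close to the median of 2.38 over all tested genes, and the library ranges of this pair overlapped. Their order differed between the groups: SOX9 was above KLF4 in each control library (1.75 to 2.44 against 1.03 to 1.38 RPKM) and KLF4 above SOX9 in each shtRF library (2.63 to 3.21 against 1.70 to 1.87 RPKM). SOX2 stood at 0.179 RPKM, near the 10th percentile of 0.164. ALDH1A3 at 0.0324 and PROM1 at 0.0171 lay lower still, and the range of ALDH1A3, 0.00878 to 0.0763, overlapped with that of SOX2 above it and of PROM1 below it. CD44 at 0.00327 and ALDH1A1 at 0.00148 came last, with overlapping ranges. All other neighbours in this order had library ranges apart from each other. PROM1 and CD44 nearly met, at 0.00579 and 0.00571 RPKM in shtRF replicate 1, from 3 and 4 counts.

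**Figure D1:**
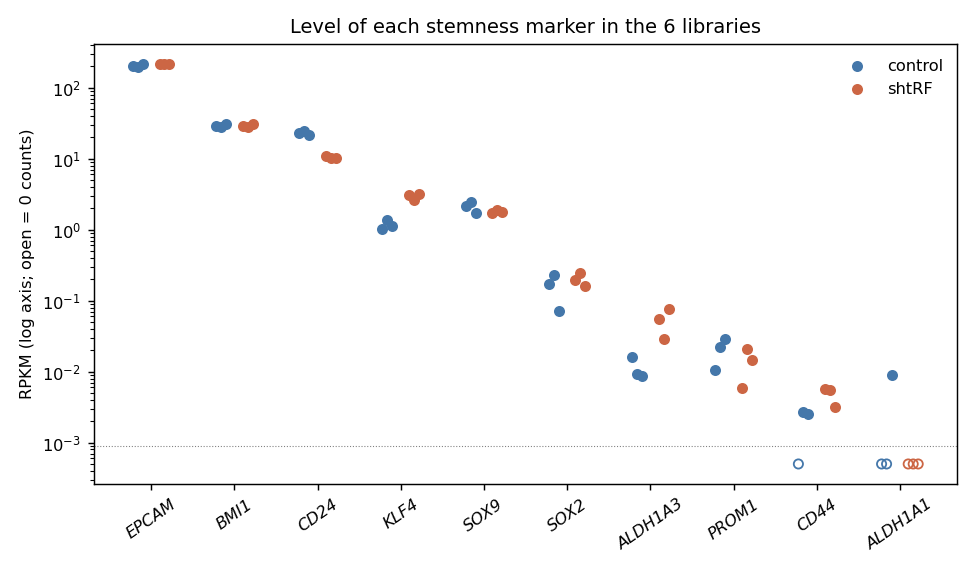
RPKM (log axis) of the 10 markers in the 3 control and 3 shtRF libraries, ordered by the mean over the 6 libraries, with open points for libraries with 0 counts. EPCAM, BMI1 and CD24 lie above 10 RPKM in every library, whereas CD44 and ALDH1A1 lie under 0.01 RPKM in every library.

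CD24 was the surface marker with a change. The gene lies on chromosome 6 (106969831 to 106975627, minus strand, GRCh38). Its counts were 4623, 5553 and 5198 in control libraries and 2383, 2275 and 1982 in shtRF libraries. Scaled to counts per 1000000 with TMM factors (CPM), these were 71.1, 73.5 and 65.1 against 33.9, 33.1 and 32.0. Every shtRF library was thus under the lowest control library by a wide margin, and the libraries of each group lay close together. Mean CPM was 69.9 ± 4.32 (SD, n = 3) in control and 33.0 ± 0.988 in shtRF libraries, a log2 fold change of -1.08 ± 0.06 (SE) with a 95% interval of -1.21 to -0.96 (edgeR, adjusted p = 3.49e-12). Only 3.11% of tested genes were called lower with a log2 fold change below -1, and CD24 was among them. Its fall passed the threshold in all 16 alternative analyses, with log2 fold changes of -1.13 to -1.05.

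Part of the CD24 transcript sequence has a near copy elsewhere in the genome. CD24P4, a pseudogene, is 99.2% identical to a CD24 transcript over its 243 bases, 2 of which differ. It held 0, 3 and 2 counts in control and 0, 0 and 1 in shtRF libraries, so that few reads were credited to it in either group. How reads that match both were treated is not given in the sources used here.

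The 3 genes whose pattern over the 6 libraries was most like that of CD24, among 13188 tested genes with a mean of at least 2 CPM, were RCN1, FASN and GLTSCR2. Likeness was the root mean square difference between log2(CPM + 1) values centred on each gene's mean, which was 0.04 for each of them. RCN1, a calcium-binding protein of the endoplasmic reticulum, had a mean of 95.5 CPM in control and 47.1 in shtRF libraries. FASN, the fatty acid synthase, went from 528 to 247 CPM, and GLTSCR2, a nucleolar protein, from 144 to 65.2 CPM. As CD24 itself had been tested in this contrast, the likeness is a description of its pattern.

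EPCAM, on chromosome 2 (47345158 to 47387601, plus strand), was the most abundant of the markers in both groups. Its CPM values were 503, 477 and 531 in control and 533, 566 and 558 in shtRF libraries. All shtRF libraries were above all control libraries, though control replicate 3 and shtRF replicate 1 nearly met. On the RPKM scale, which lacks the TMM factors, the groups overlapped, with 213.4 in control replicate 3 and 213.3 in shtRF replicate 1. The log2 fold change was 0.13 ± 0.06 (SE, 95% interval 0.02 to 0.25), which missed the threshold (edgeR, adjusted p = 0.065). The call depended on 1 library and on the tool: the adjusted p was 0.0409 by DESeq2, 0.022 without control replicate 3, 0.0443 without shtRF replicate 1 and 0.314 without control replicate 2. A rise of more than 1.19-fold lay outside the 95% interval. The groups of 4 of the 8 tested members, CD24, EPCAM, KLF4 and ALDH1A3, did not overlap in CPM, against 48.7% of all tested genes. In 3 of them the shtRF libraries were the higher ones (24.9% of all tested genes) and in CD24 the control libraries were (23.8%).

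The RPKM of EPCAM divided by that of CD24 was 8.71, 7.99 and 10.0 in control and 19.3, 21.0 and 21.4 in shtRF libraries. This ratio was formed after the values of both genes had been seen, and its 2.31-fold difference between the group means follows from the fall of CD24 with EPCAM nearly level.

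CD44, the marker that is set against CD24 in the stem cell pattern, was close to absent from these libraries. The gene lies on chromosome 11 (35138870 to 35232402, plus strand) and has 10057 exonic bases. Its counts were 0, 2 and 2 in control and 4, 4 and 2 in shtRF libraries, all even numbers. The floor of 3 counts corresponded to 0.00378 to 0.00469 RPKM, and 4 of the 6 libraries were under it. The libraries above it were shtRF replicates 1 and 2, whose 4 counts each may stand for fewer fragments. The gene did not pass the filter on low counts, and no fold is given. With CD44 at this level, the ratio of CD44 to CD24 could not be measured as mRNA at this depth.

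PROM1, on chromosome 4 (15963076 to 16084378, minus strand), had the lowest mean RPKM over the 6 libraries among members that passed the filter, though in control libraries its mean of 0.0205 RPKM was above the 0.0115 of ALDH1A3. Its counts were 5, 12 and 17 in control and 3, 11 and 7 in shtRF libraries, and the groups overlapped. Its log2 fold change was -0.53 ± 0.62 (SE) and the 95% interval -1.81 to 0.76 (adjusted p = 0.545, edgeR). As a fold this interval ran from 0.284 to 1.70 of control, too wide at this depth to place PROM1 above or below its control level.

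Among the 2 aldehyde dehydrogenases, ALDH1A3 was detected at a low level and ALDH1A1 was not. ALDH1A3, on chromosome 15 (100877714 to 100916626, plus strand), had 6, 4 and 4 counts in control and 22, 12 and 28 in shtRF libraries. All 6 counts were even numbers, as where both mates of a read pair are counted, so that fewer fragments than counts may stand behind them. The shtRF libraries were all above the control libraries, at 0.313, 0.175 and 0.452 CPM against 0.0922, 0.0530 and 0.0501. The log2 fold change was 2.25 ± 0.59 (SE), and the 95% interval of the fold ran from 2.05 to 11.1 (edgeR, adjusted p = 0.00386). Even so, its mean RPKM was above only 1.39% of tested genes. The call was lost by limma-trend on log2(RPKM + 1), with an adjusted p of 0.125, and on log2(RPKM + 0.1), with 0.0516, and stricter filters and halved counts left the gene untested. The antisense gene RP11-66B24.4 covers 27.5% of its exonic bases and had 8 counts in shtRF replicate 1 and 0 in the other libraries.

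ALDH1A1, on chromosome 9 (72900662 to 73080442, minus strand), had 2 counts in control replicate 3 and 0 in the other 5 libraries. The floor of 3 counts corresponded to 0.0133 to 0.0166 RPKM in these libraries, and ALDH1A1 mRNA was at or under it in both groups. This floor takes each count as an independent read, and would be higher where both mates of a pair were counted. It covers counting error only.

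KLF4 showed the clearest rise among the transcription factors. The gene lies on chromosome 9 (107484852 to 107490482, minus strand). Its counts were 242, 372 and 326 in control and 787, 687 and 746 in shtRF libraries. In CPM these were 3.72, 4.93 and 4.08 against 11.2, 10.0 and 12.03, and the lowest shtRF library was well above the highest control library. Mean CPM was 4.24 ± 0.618 (SD, n = 3) in control and 11.1 ± 1.02 in shtRF libraries. The log2 fold change was 1.38 ± 0.11 (SE, 95% interval 1.14 to 1.62, edgeR, adjusted p = 2.38e-09). KLF4 was among the 2.66% of tested genes called higher with a log2 fold change above 1. It passed the threshold in all 16 alternatives, with log2 fold changes of 0.87 to 1.49.

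**Figure D2:**
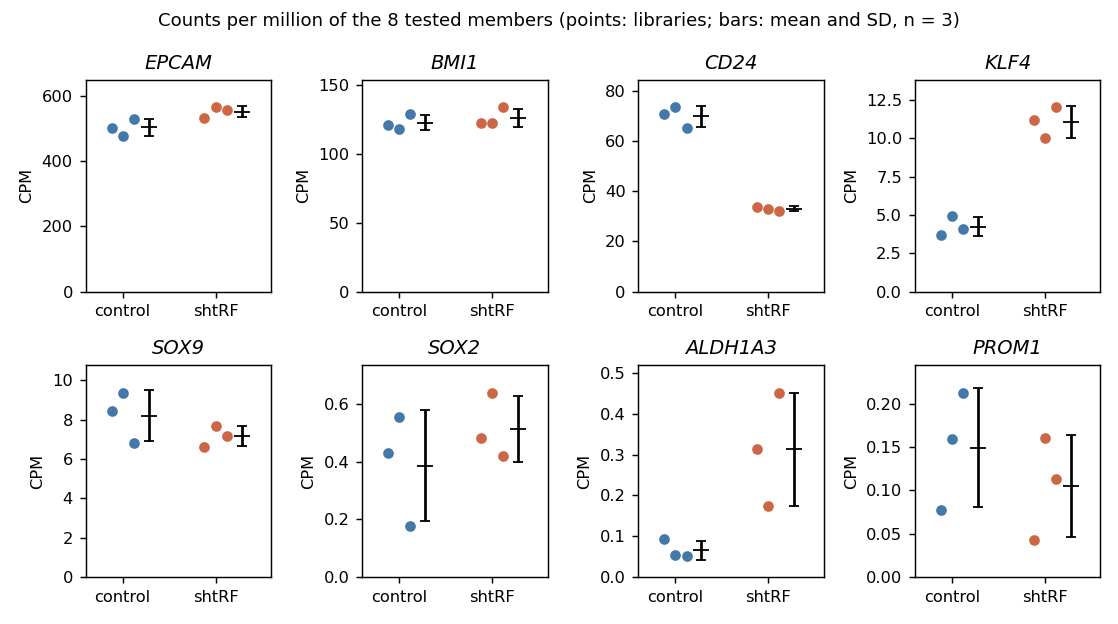
CPM (linear axes from 0) of the 8 tested markers in control and shtRF libraries, 1 point per library, with the mean and SD (n = 3) beside the points. CD24 fell from a mean of 69.9 to 33.0 and KLF4 rose from 4.24 to 11.1, whereas the points of SOX9, SOX2, PROM1 and BMI1 overlap between groups.

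SOX9 and SOX2 did not pass the test. SOX9, on chromosome 17 (72121020 to 72126420, plus strand), had 8.44, 9.37 and 6.79 CPM in control and 6.63, 7.66 and 7.18 in shtRF libraries. Control replicate 3 lay within the shtRF range, and the other control libraries lay above it. The log2 fold change was -0.20 ± 0.11 (SE, 95% interval -0.43 to 0.04, edgeR, adjusted p = 0.189), and without control replicate 3 it was -0.32 with an adjusted p of 0.0243. SOX2, on chromosome 3 (181711924 to 181714436, plus strand), had 28, 42 and 14 counts in control and 34, 44 and 26 in shtRF libraries. The groups overlapped in part, as control replicate 3 lay under all shtRF libraries and shtRF replicate 2 above all control libraries in CPM. Its log2 fold change of 0.42 ± 0.42 (SE) had a 95% interval of -0.45 to 1.29 (edgeR, adjusted p = 0.466).

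BMI1, on chromosome 10 (22321211 to 22331484, plus strand), was abundant and nearly level. Its CPM values were 121, 118 and 129 in control and 123, 123 and 134 in shtRF libraries, so that the groups overlapped. At 0.04 ± 0.06 (SE), its log2 fold change had a 95% interval of -0.07 to 0.16 (edgeR, adjusted p = 0.603), so that a rise above 1.12-fold or a fall below 0.950 of control lay outside it. The readthrough gene COMMD3-BMI1 shares 1000 exonic bases, 23.3% of those of BMI1, and its counts were 87.6% to 91.2% of the BMI1 counts in every library. Reads of these overlapping genes cannot be told apart in the table. By edgeR, the difference for COMMD3-BMI1 was 0.00 ± 0.05 on the log2 scale (SE, adjusted p = 0.973), and that for the upstream gene COMMD3 was -0.11 ± 0.07 (SE, adjusted p = 0.238).

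**Figure D3:**
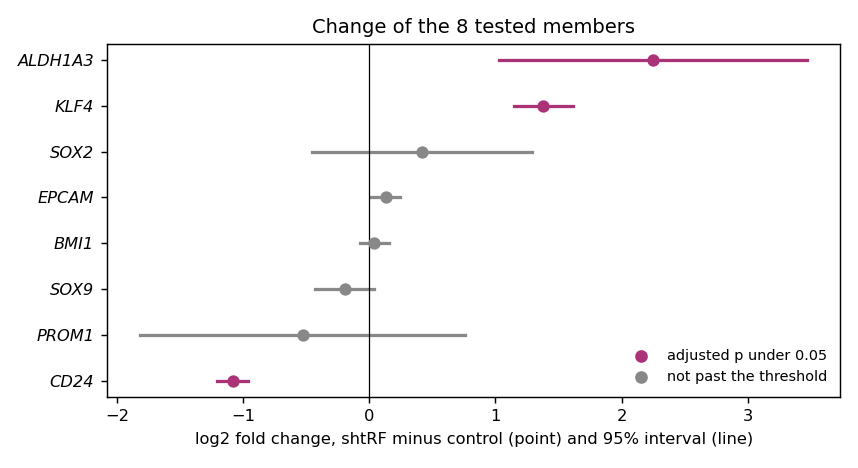
Log2 fold change (shtRF minus control, points) with the 95% interval (lines) of the 8 tested markers, coloured by whether the adjusted p was under 0.05. The intervals of CD24, KLF4 and ALDH1A3 lie away from 0 and are called, that of EPCAM lies just above 0 and is not, and those of PROM1 and SOX2 are wide.

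Genes that work with the markers were described from 9 lists with 197 distinct genes, of which 134 were tested. Of these, 36 (26.9%) were higher and 39 (29.1%) lower in shtRF libraries, against 20.6% and 18.9% of all tested genes, and their median log2 fold change was -0.06. The lists were chosen with earlier results of these data known, and were not matched to all tested genes in level. They are described by counts alone, with no test of a list as a whole.

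Among other surface markers of stem or progenitor cells, 7 of 18 tested genes were higher and 5 lower, with a median log2 fold change of 0.11. NCAM1, a neural adhesion protein, rose from 4.06 to 7.91 CPM (log2 fold change 0.96, edgeR, adjusted p = 3.93e-06), and CDH3, P-cadherin, rose from 5.58 to 9.48 CPM. CD47, which restrains phagocytosis, fell from 14.1 to 8.23 CPM, and PODXL, a sialomucin, from 6.26 to 3.77 CPM. Exons of another gene cover 11.1% of CDH3.

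Of the partners, ligands and processing enzymes of the CD44, CD24 and EPCAM proteins, 6 of 24 tested genes were higher and 2 lower (median 0.03). EZR, ezrin, which ties CD44 and other membrane proteins to actin, rose from 1939 ± 80.9 to 3883 ± 279.7 CPM (SD, n = 3, edgeR, adjusted p = 2.25e-11). RDX, radixin of the same family, fell from 63.0 to 29.7 CPM (log2 fold change -1.08 ± 0.06, edgeR, adjusted p = 1.30e-11). MSN, moesin, the remaining member of that family, was lower too at 56, 76 and 72 counts against 8, 14 and 20, and is named here after its values were seen.

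Of the other aldehyde dehydrogenases, 3 of 15 tested genes were higher and 5 lower (median -0.06). ALDH3B2 rose from 179 to 283 CPM (log2 fold change 0.66, edgeR, adjusted p = 1.31e-08). ALDH5A1, of the breakdown of GABA, rose from 5.83 to 7.67 CPM. The mitochondrial ALDH1B1 fell from 5.07 to 2.18 CPM (log2 fold change -1.22, edgeR, adjusted p = 5.16e-07), and ALDH18A1, of proline synthesis, fell by 0.39 on the log2 scale from 28.8 CPM. The call of ALDH5A1 was lost by edgeR without shtRF replicate 2 (adjusted p = 0.109). In the retinoic acid list, 1 of 10 tested genes was higher and 2 lower (median 0.01). RDH10, which makes the retinaldehyde that ALDH1A enzymes use, rose from 8.67 to 12.01 CPM, while the receptor RARG fell from 8.88 to 4.54 CPM and the retinaldehyde reductase DHRS3 from 3.98 to 2.98 CPM. The call of DHRS3 was lost by edgeR without control replicate 1 or 3 or shtRF replicate 1 or 3 (adjusted p of 0.0631 to 0.189).

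Of the pluripotency factors beside SOX2 and KLF4, 6 of 19 genes in the table passed the filter, of which 3 were lower and 1 was higher (median -1.16). MYC, a reprogramming factor, fell from 21.0 to 7.55 CPM (log2 fold change -1.48 ± 0.08, edgeR, adjusted p = 2.51e-12), and DNMT3B, a de novo DNA methyltransferase, from 14.9 to 5.21 CPM. The MYC change thus had the opposite sign to that of KLF4. POU5F1, another reprogramming factor, had 97, 84 and 96 counts in control and 155, 139 and 143 in shtRF libraries (edgeR, adjusted p = 0.00222), and NANOG had 2 counts in shtRF replicate 3 and 0 elsewhere. Both are named after their values were seen, and near copies of either gene were not looked for. Exons of TCF19 on the other strand cover 8.61% of POU5F1.

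In the KLF family, 3 of 13 tested genes other than KLF4 were higher and 5 lower (median -0.25). KLF2 rose from 4.35 to 8.09 CPM and KLF10 from 8.82 to 11.3 CPM, whereas KLF17 fell from 4.72 to 3.40 CPM and KLF9 from 3.66 to 2.69 CPM. By edgeR the call of KLF10 was lost without shtRF replicate 1 (adjusted p = 0.0823), that of KLF17 without control replicate 3 (0.0706) or shtRF replicate 3 (0.0550), and that of KLF9 without control replicate 1 or 2 or shtRF replicate 1 or 3 (0.0509 to 0.0990). In the SOX family, 2 of 7 tested genes other than SOX2 and SOX9 were higher and 2 lower (median 0.07). SOX4 fell from 52.7 to 28.5 CPM (log2 fold change -0.89, edgeR, adjusted p = 1.27e-10) and SOX12 from 81.3 to 61.3 CPM, while SOX13 rose from 222 to 250 CPM and SOX6 from 13.0 to 15.0 CPM, the last with an adjusted p of 0.0487 by edgeR that was lost in 13 alternatives, among them those without control replicate 1 or 2 or shtRF replicate 2 or 3 (up to 0.199).

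Polycomb genes other than BMI1 were all measurable, and 8 of 29 were higher and 10 lower (median -0.10). CBX2, a chromobox subunit of the same complex as BMI1, fell from 36.5 to 18.9 CPM (log2 fold change -0.95, edgeR, adjusted p = 1.31e-10), while CBX7, its alternative in that complex, rose from 15.0 to 22.8 CPM. PHF19 fell from 22.6 to 14.1 CPM and PHF1 rose from 8.25 to 11.8 CPM, and both accompany Polycomb repressive complex 2. Exons of another gene cover 21.6% of CBX7.

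Of the mammary stem and progenitor regulators, 5 of 13 tested genes were higher and 6 lower (median -0.12). RUNX1 rose from 19.5 to 29.7 CPM and ID3 from 3.22 to 4.60 CPM, whereas SOX4 fell as above and TP63, a basal cell factor, fell from 2.88 to 1.98 CPM, a call lost by edgeR without control replicate 1 (adjusted p = 0.102) or shtRF replicate 1 (0.0929) or 2 (0.0796).

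**Figure D4:**
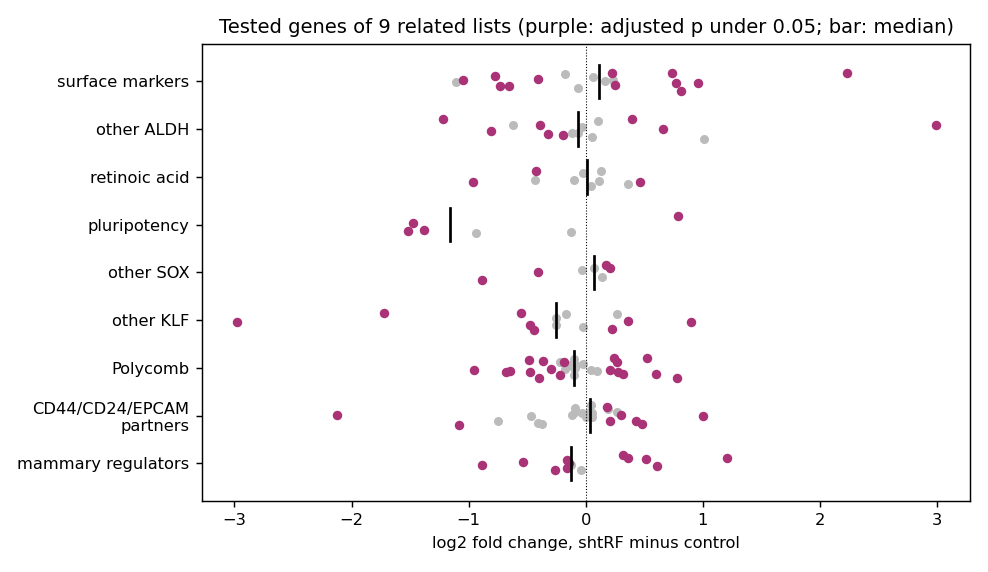
Log2 fold change (shtRF minus control) of the tested genes of the 9 lists, 1 point per gene, purple where the adjusted p was under 0.05, with a bar at the median of each list. Each list holds called genes on both sides of 0, and the medians lie between -0.25 and 0.11 except for the pluripotency factors at -1.16.

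Library totals were 63541413 to 78917459 counts, a 1.24-fold range, and no pair of libraries within a group agreed within sampling noise. All 10 luminal or apocrine markers listed to check the cell line were tested, with a summed level of 10463 to 11391 CPM in control and 13067 to 14384 CPM in shtRF libraries. The 7 basal markers summed to 11.9 to 13.4 CPM in control and 6.99 to 7.82 CPM in shtRF libraries, the 5 leukocyte markers to at most 0.252 CPM, with CD3E at or under the floor, and the 4 endothelial markers to at most 0.393 CPM. The 4 fibroblast markers in the table summed to 29.7 to 35.6 CPM in control and 20.6 to 21.3 CPM in shtRF libraries, nearly all of it COL1A1, with DCN at or under the floor. The luminal sum was higher in each shtRF library than in any control library, and the basal and fibroblast sums were lower. The part of these shifts in the changes above was not tested, and fewer cells with an mRNA and less of it per cell cannot be told apart in bulk libraries.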

How the data were processed

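Messenger RNA of 6 MDA-MB-453 libraries was measured with a stranded kit and paired reads. The authors deposited raw counts per gene with exon coordinates and lengths, and RPKM values. The submitters' processing notes name Trimmomatic 0.36, featureCounts, Subread 1.5.1, edgeR 3.12.1 and GRCh38, with no roles; the aligner and the counting settings are not given in the sources used here. Of 25660 symbols found once in GENCODE 29, 98.4% lay on the same GRCh38 locus. Among counts of 1 to 4, 74.2% to 77.1% were even, against 49.7% to 50.7% of counts of 1000 or more, so that low counts can hold fewer fragments than reads. The deposited RPKM table, as used here, held 4997 complete genes and 2 of the members; its 4991 genes matched by symbol equalled count / length / total within 0.1%, and RPKM was recomputed that way for all genes.

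Counts were tested with edgeR 4.0.16 (R 4.3.3): filterByExpr (minimum count 10), TMM, glmQLFit and glmQLFTest on group, Benjamini-Hochberg over 19628 genes, threshold 0.05. The biological coefficient of variation was 7.56%. SEs came from the estimate and its F statistic, and intervals are 95%. DESeq2 1.42.0 and limma 3.58.1 served as alternatives, beside other scalings, filters, halved counts, a replicate block and leaving out each library. The scripts were tested on simulated data with 200 changed genes, a far smaller share than was called here. There edgeR recovered 79 of 100 2-fold changes, and 18 of its 192 calls were false. The floor was 3 counts per library.

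The members and lists were chosen with earlier results of these data known. Named were all members, the 2 largest rises and falls of each list among genes past the threshold with a mean of at least 2 CPM, genes covering at least 10% of a member's exonic bases, and the 3 genes most like CD24; others are marked where named. Of the genes this rule names, 1 is not reported here. Genes of the lists that are not in the table were not analysed here.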

Additional observations from a re-analysis of the deposited data

How the results depend on the processing

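Over 16 alternatives, CD24 and KLF4 kept their direction and their call. The number of members called higher, 2 in the main analysis, was 1 with at least 1 CPM in at least 3 libraries, with at least 10 counts in every library, by limma-trend on log2(RPKM + 1) and on log2(RPKM + 0.1), and with halved counts, and 3 by DESeq2, without control replicate 3 and without shtRF replicate 1, where EPCAM was added (range 2 to 3 when each library was left out). Where the number fell, ALDH1A3 was the member lost: the filters and the halving left it out of the test, and limma-trend gave an adjusted p of 0.125 and 0.0516. The number called lower, 1 in the main analysis, ranged from 1 to 2 when each library was left out, with 2 without control replicate 3, where SOX9 was added. BMI1, not called in any analysis, had log2 fold changes of -0.01 by limma-trend with both pseudocounts (-0.0113 and -0.0117), opposite to the 0.04 of edgeR; the cause was not tested. Among the 121 values that the alternatives gave for members, 113 had the same sign and the same call as the main analysis. Of 665 values of the 42 named genes with a test, 618 did so, 41 missed the threshold, 4 passed it newly and 2 changed sign. Calls of SOX6 were lost in 13 alternatives, of DHRS3 in 6, of KLF9 and TP63 in 5 each, of ALDH5A1 and KLF10 in 3 each, and of SOX13 and KLF17 in 2 each.

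No pairing by replicate number was seen: deviations from the group means of same-numbered libraries correlated at 0.0592, 0.0178 and 0.0174. Libraries with different numbers correlated at -0.0765 to 0.0562. Whether the libraries were prepared in numbered pairs is not given in the sources used here. With the replicate number as a block, 2 members were higher and 1 lower, as without it, and 4123 genes were higher and 3776 lower against 4046 and 3704. Low counts limit SOX2, PROM1, ALDH1A3, CD44 and ALDH1A1, whose intervals or floors were wide.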
